A study of Mus musculus with 41 samples.

Results

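The Wnt pathway was followed through 44 genes in 41 mouse mammary tumors. The genes were taken by symbol from the 47480 symbols of the deposited table, and all 44 were found. They were 16 Wnt ligands, the ligand-acylating enzyme Porcn, 10 Frizzled receptors, the co-receptors Lrp5 and Lrp6, 3 R-spondins with the receptors Lgr4 and Lgr5, 5 secreted antagonists, beta-catenin (Ctnnb1) with the destruction-complex scaffold Apc, and Axin2, Lef1 and Tcf7. Of the tumors, 28 were Plk2-/-; p53-/- and are called PLK2null, and 13 were p53-/- and are called p53null. All lacked p53, were of the Balb/c background, and were grown untreated in the fat pads of mice of the same strain. The PLK2null tumors came from mammary epithelial cells of double-null donors placed in cleared fat pads of wild-type recipients, so stroma and vessels supplied by the host carry both genes. PLK2null-732, PLK2null-733, PLK2null-743 and the p53null tumor T11 were taken as claudin-low, of which the study's list of models names PLK2null-743 and T11 and its clustering places the other two. This subtype is known for low levels of tight-junction and epithelial genes. Its name is taken from the study, and values of claudin genes are not given here. The other 25 PLK2null tumors were used as 1 group. They hold 7 whose numbers stand in the study's latency plot of primary tumors (PLK2null-7747, PLK2null-7748, PLK2null-7749, PLK2null-7750, PLK2null-7753, PLK2null-7763 and PLK2null-7764) and 18 others. The series includes serial transplants, and its labels do not say which tumors share an origin, so tumors may not be independent and p-values measure the spread between these libraries.

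Wnt ligands are secreted glycoproteins that carry a lipid added by Porcn. In canonical signaling they bind a Frizzled receptor together with Lrp5 or Lrp6, the complex of Axin, Apc and kinases stops degrading beta-catenin, and beta-catenin enters the nucleus and activates genes through the factors Tcf7 and Lef1. Axin2 is a widely used target gene and also a brake on the pathway, R-spondins bound to Lgr receptors keep Frizzled proteins on the membrane, and Sfrp, Wif1 and most Dkk proteins act as antagonists outside the cell. In the mammary gland Wnt4 is known as a relay of progesterone action on the epithelium, and ectopic Wnt1 is a classical cause of mammary tumors in mice.

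Values are upper-quartile-normalized estimated counts, in which the upper quartile of the nonzero genes is 1000 in every tumor. A value of 1000 therefore equals that of an abundant gene. Libraries held 29409609 to 70868124 fragments on genes, and the detection floor used here, 3 reads, corresponded to values of 1.16 to 2.45. Depth differed between the genotypes, with medians of 58042777 fragments in the p53null and 39053966 in the PLK2null libraries. Intervals and floors cover counting error only. Plk2 ranged from 36.6 to 553 in the PLK2null tumors and from 186 to 8028 in the p53null tumors, where the library labelled p53null-7435 had the value of 186 and lay inside the PLK2null range. All p53null libraries and no PLK2null library carry 1 numbered series name in their titles, so a library batch and the genotype cannot be told apart. The 3 claudin-low PLK2null tumors stood apart in their cell type markers. Their summed level of 5 epithelial markers was 55.9 to 309, against 17453 to 117599 in the other PLK2null tumors, and that of 6 endothelial markers was 165585 to 186496 against 2572 to 78025. The highest of the other PLK2null tumors, PLK2null-7763, had the 78025. Plk2 was 36.6, 54.4 and 127.6 (lowest, median and highest) in the 3 claudin-low tumors. It was 83.3, 314 and 553 in the other 25, with the 83.3 in PLK2null-7763. Whether the endothelial RNA came from host cells was not tested. All 6 endothelial and all 5 pericyte markers were called higher and all 5 epithelial markers lower in the 3 claudin-low tumors. Of the 6 fibroblast markers 3 were called lower, and all 4 T cell markers were called higher. The 6 fibroblast markers summed to 14888 to 56137 there against 12210 to 280437, and the 4 T cell markers to 837 to 1534 against 54.6 to 1435. Of 4 basal epithelial markers 3 were called lower. Of 5 tested adipocyte markers 1 was called higher, Fabp4, which endothelium also makes, and of 4 macrophage markers 1 was.

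**Figure D1:**
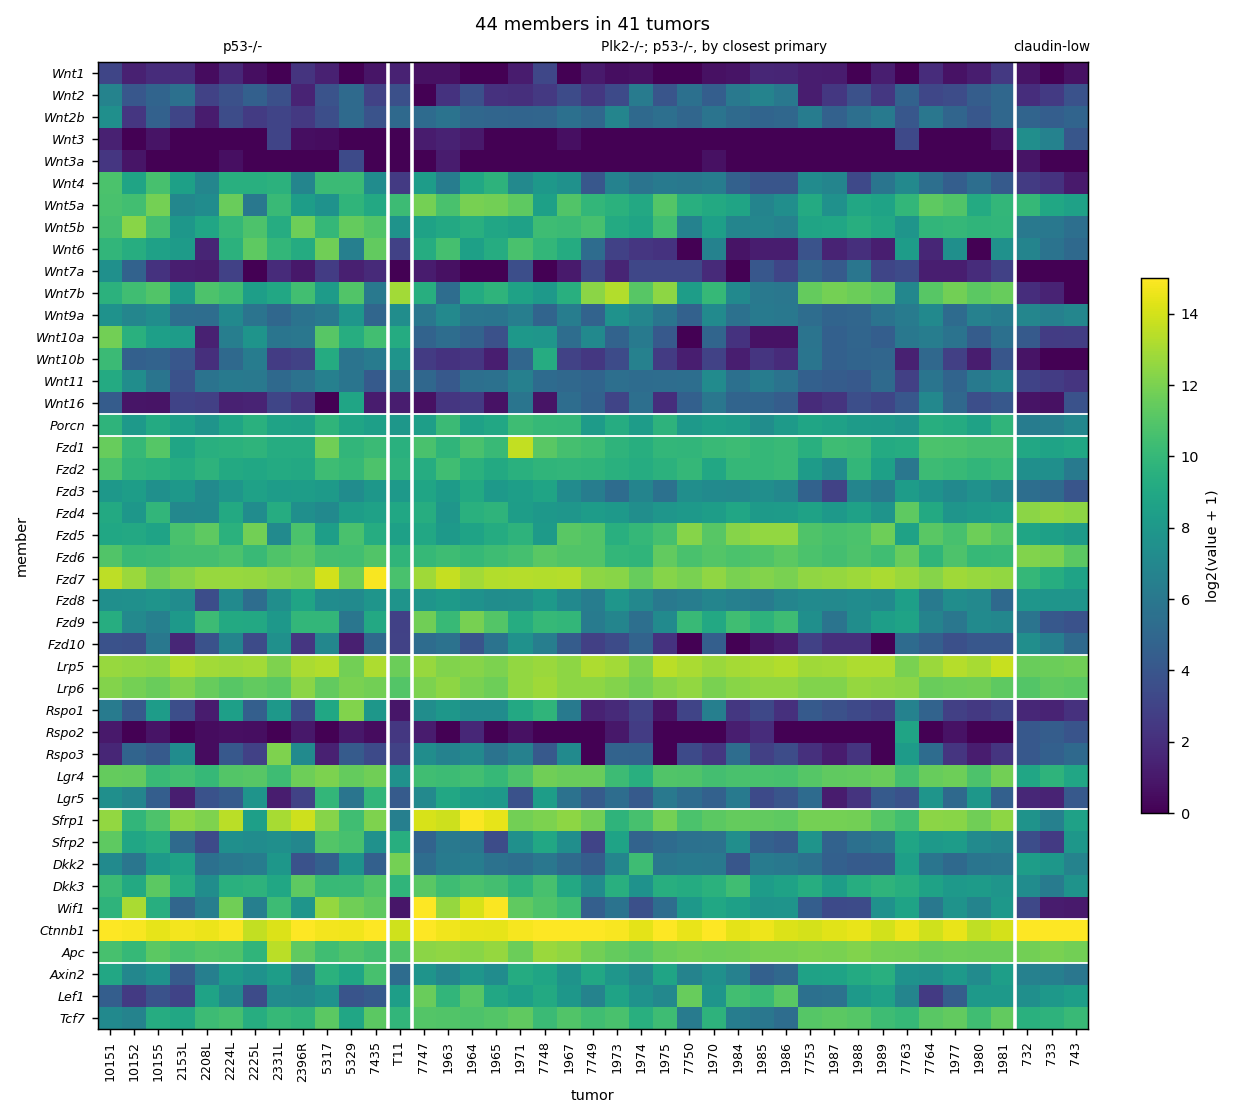
Level of each of the 44 members (rows, grouped by role) in each of the 41 tumors (columns), as log2(value + 1), with white lines between p53null tumors, T11, 25 PLK2null tumors and 3 claudin-low PLK2null tumors. PLK2null tumors are ordered by the primary tumor whose profile was closest. Ctnnb1, Fzd7 and Lrp5 are high in most columns, Wnt1, Wnt3a and Rspo2 are low in most, and the 3 claudin-low columns are dark for Wnt7b and Wif1 and bright for Fzd4.

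A few ligands led the Wnt ligand RNA of these tumors. Levels of different genes were compared as value per kilobase of exon, and each ligand was given as a share of the summed level of the 16 ligands of that tumor. Wnt7b led in 15 tumors, Wnt5a in 9, Wnt6 in 8, Wnt5b in 7, and Wnt2 and Wnt10a in 1 tumor each. The share of the leading ligand ran from 23.0% in p53null-2224L (Wnt5a) to 81.7% in PLK2null-1973 (Wnt7b), with a median of 44.9%. Wnt7b led in 13 of the 25 PLK2null tumors outside the claudin-low subtype and in 2 of the 13 p53null tumors, where Wnt6 led in 5 and Wnt5b in 4. The order of a tumor's ligands thus varied widely within both genotypes. The summed ligand level per kilobase was 561, 2183 and 3908 (lowest, median and highest) in the p53null tumors, 151, 1168 and 2491 in the 25 PLK2null tumors, and 317, 182 and 139 in PLK2null-732, PLK2null-733 and PLK2null-743. These sums overlap between the genotypes, and the claudin-low sums lie at the lower end of the PLK2null range.

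**Figure D2:**
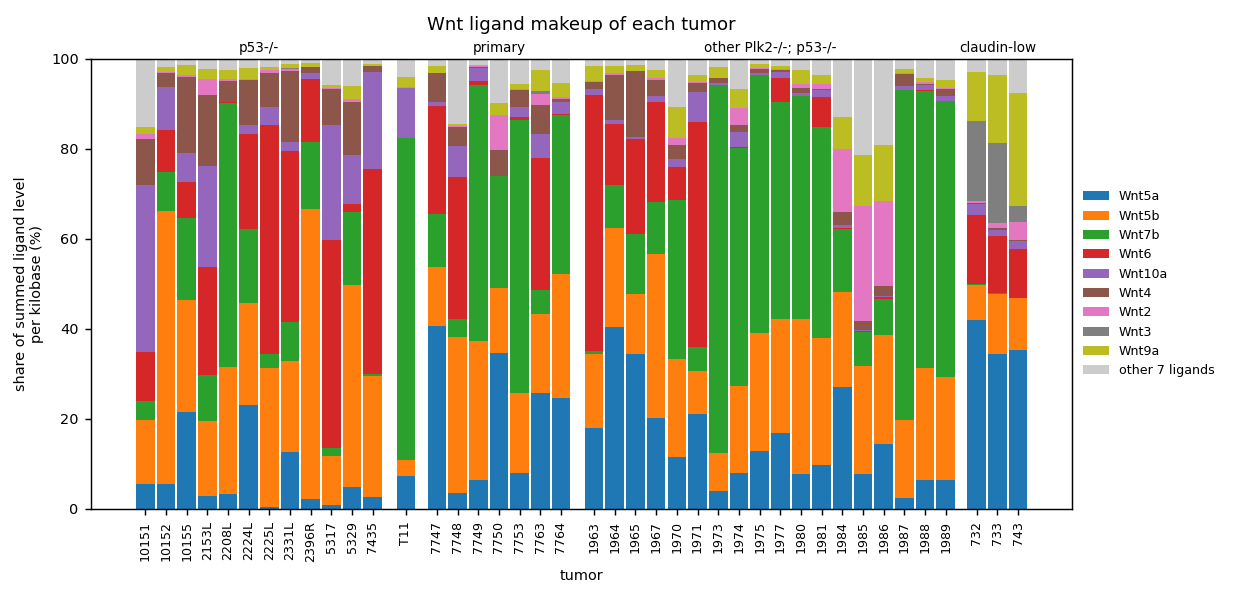
Share of each ligand in the summed ligand level per kilobase of exon (%, stacked to 100), 1 bar per tumor, with the p53null tumors, T11, the 7 primary PLK2null tumors, the 18 other PLK2null tumors and the 3 claudin-low PLK2null tumors set apart. Wnt7b fills up to 81.7% of a bar in PLK2null tumors and 71.5% in T11, and is almost absent from the claudin-low bars, where Wnt5a is the leading share at 34.5 to 41.9%.

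Fzd7 led the receptors. Its share of the summed Frizzled level per kilobase was the highest in all 13 p53null tumors, with a lowest, median and highest share of 32.4, 52.5 and 80.1%, and in 24 of the 25 PLK2null tumors. The exception was PLK2null-1971, in which Fzd1 held 47.3%. In the claudin-low PLK2null tumors Fzd7 held 9.74, 6.34 and 5.50% (PLK2null-732, PLK2null-733 and PLK2null-743, in this order also below), and Fzd4 (34.6, 42.5 and 50.2%) and Fzd6 (40.6, 39.1 and 30.3%) led instead. T11 kept Fzd7 as its leading receptor at 32.4%.

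A trio of ligands was close to the floor in these tumors. Wnt1 reached at most 8.28 (PLK2null-7748), Wnt3a at most 9.25 (p53null-5329), and Wnt3 outside the claudin-low tumors at most 8.77 (PLK2null-7763). Wnt7a exceeded 100 only in p53null-10151, at 180.1, and all 3 claudin-low PLK2null tumors were at 0 for it, which allows up to the 3 reads of the floor. Rspo2 was at most 4.33 in the p53null tumors. A low level in bulk RNA can mean few cells of a type or little RNA per cell, and the 2 cannot be told apart.

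The promoters of the members were searched for the sequence that Tcf7 and Lef1 recognize. RefSeq windows on GRCm38.p6 were given for 28 of the 44 members (36 windows), and the 250 bases before each RefSeq start were searched on both strands for the TCF/LEF motif CTTTGAT and its variant CTTTGTT, which do not overlap each other. CTTTGAT occurred in 3.21% and CTTTGTT in 5.03% of all 32851 windows. Among the members, CTTTGAT occurred once upstream of Wnt5b and once upstream of Wnt11, and CTTTGTT once upstream of Fzd7, so that 3 of 36 member windows held either motif against 8.06% of all windows, a share near the background. Those 3 windows are shown because they are the only member windows with a motif, with the motif, in either strand's letters, in capitals. The Wnt6 window is shown beside them as that of the ligand with the second largest difference between genotypes, and it held neither motif.
Wnt5b (minus strand, chr6:119449387-119449636): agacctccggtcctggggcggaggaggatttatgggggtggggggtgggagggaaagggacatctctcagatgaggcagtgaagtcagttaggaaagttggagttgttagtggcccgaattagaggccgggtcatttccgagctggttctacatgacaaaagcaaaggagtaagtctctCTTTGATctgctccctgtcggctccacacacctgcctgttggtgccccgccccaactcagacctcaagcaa
Wnt11 (plus strand, chr7:98834862-98835111): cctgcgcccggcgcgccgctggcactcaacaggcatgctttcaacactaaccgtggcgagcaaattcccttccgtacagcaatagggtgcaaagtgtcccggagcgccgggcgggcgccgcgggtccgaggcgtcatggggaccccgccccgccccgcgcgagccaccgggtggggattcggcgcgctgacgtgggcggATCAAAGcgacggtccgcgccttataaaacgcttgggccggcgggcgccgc
Fzd7 (plus strand, chr1:59481897-59482146): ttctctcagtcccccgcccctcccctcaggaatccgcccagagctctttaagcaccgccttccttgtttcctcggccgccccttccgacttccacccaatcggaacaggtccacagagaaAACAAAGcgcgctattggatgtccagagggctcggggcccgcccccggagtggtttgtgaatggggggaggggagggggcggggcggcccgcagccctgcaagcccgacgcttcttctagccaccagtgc
Wnt6 (plus strand, chr1:74771642-74771891): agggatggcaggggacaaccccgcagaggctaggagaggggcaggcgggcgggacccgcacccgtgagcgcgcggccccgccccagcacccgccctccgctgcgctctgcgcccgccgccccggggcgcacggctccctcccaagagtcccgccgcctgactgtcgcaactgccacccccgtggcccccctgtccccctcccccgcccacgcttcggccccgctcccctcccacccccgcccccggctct
The motif began 71 bases before the Wnt5b start of its window, 51 before that of Wnt11 and 130 before that of Fzd7. The Wnt5b window belongs to an internal start, the most downstream of 3, and the windows at the other 2 Wnt5b starts and at the other Wnt11 start held neither motif. A match describes the sequence and does not show a bound site. Windows for Wnt5a, Wnt7b, Wnt10a, Porcn, Fzd2, Fzd3, Fzd6, Fzd8, Lrp5, Lrp6, Rspo2, Rspo3, Lgr5, Sfrp1, Dkk3 and Apc were not used here.

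Loss of Plk2 on the p53-null background was examined first, as 28 PLK2null against 13 p53null tumors. Of the 41 members with a mean of at least 10, 11 were called (26.8%), 4 higher and 7 lower in the PLK2null tumors. Among all 17208 genes tested, 39.5% were called, 24.3% higher and 15.3% lower, so the share of the members lay below that of all genes. In 0 of the 41 tested members did the genotypes' values fail to overlap, against 1.35% of all genes. The median difference over the members was -0.16 on the log2(value + 1) scale against 0.097 over all genes. Of all called genes 61.4% were higher, a share that was 42.9% after rescaling by trimmed means and 50.7% after quantile normalization. The ligands held 6 of the 11 calls, among 13 tested ligands (46.2%), a share near the 39.5% of all genes. Differences below are PLK2null minus p53null means of log2(value + 1) with their standard error (SE), which understates the change of low genes, and values are given as lowest, median and highest.

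The neighboring ligands Wnt6 and Wnt10a fell by the widest margins. They lie 6193 bases apart on chromosome 1 of GRCm38, Wnt6 from 74771892 to 74785322 and Wnt10a from 74791516 to 74804179, both on the plus strand, and both encode canonical ligands known from skin and mammary epithelium. Wnt10a was 1.56, 350.4 and 3570.0 in the p53null tumors and 0, 26.2 and 249.7 in the PLK2null tumors, a difference of -3.54 ± 0.74 (SE; limma adjusted p = 0.00016). All 28 PLK2null tumors lay below the p53null median, and 8 p53null tumors lay above every PLK2null tumor. Wnt6 was 1.95, 659 and 3508 in the p53null tumors and 0, 36.0 and 1667 in the PLK2null tumors, a difference of -3.43 ± 1.13 (SE; limma adjusted p = 0.014), with 25 of 28 PLK2null tumors below the p53null median. Among the PLK2null tumors PLK2null-1971 and PLK2null-1963 reached 1667 and 1499. Both genes reached 100 in 7 of the 13 p53null tumors and in 2 of the 28 PLK2null tumors, and neither did in 1 and 16. Of the 10 other tested genes within 250 kb of the pair 4 had a lower and 6 a higher mean in the PLK2null tumors. Among them 5 were called higher and 3 lower, with a median difference of 0.47, and the nearest, Prkag3 and Cyp27a1, were not called (limma adjusted p = 0.066 and 0.23). Of all genes tested 24.3% were called higher and 15.3% lower.

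Wnt4, Wnt5b and Wnt10b fell as well. Wnt4 was 4.76, 699 and 1699.7 in the p53null tumors and 1.13, 59.7 and 821 in the PLK2null tumors, a difference of -2.86 ± 0.69 (SE; limma adjusted p = 0.00095). The p53null minimum of 4.76 belonged to T11, and 27 of 28 PLK2null tumors lay below the p53null median. Wnt5b, a ligand of noncanonical signaling, was 205, 1469 and 5104 against 42.9, 473 and 1557, a difference of -1.56 ± 0.48 (SE; limma adjusted p = 0.0081), again with 27 of 28 below the median. Wnt10b, known as a canonical ligand of mammary epithelium that restrains adipocyte formation, was 3.12, 34.6 and 1171 against 0, 5.05 and 619.7, a difference of -2.45 ± 0.73 (SE; limma adjusted p = 0.0064). Its groups overlapped broadly, with 9 of 28 PLK2null tumors below all p53null tumors and the others inside the p53null range. Without the claudin-low tumors of both genotypes Wnt10b differed by -1.93 (limma adjusted p = 0.032). The summed level of 4 basal epithelial markers was 53.2, 26298 and 152115 in the p53null tumors and 11.9, 4986 and 55186 in the PLK2null tumors, with 2 of the 4 called lower, and its part in these ligand differences was not tested.

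Wnt2b was the single ligand that rose. It was 1.17, 10.1 and 175 in the p53null tumors and 15.9, 31.5 and 114 in the PLK2null tumors, a difference of 1.48 ± 0.34 (SE; limma adjusted p = 0.00056). All 28 PLK2null tumors exceeded the p53null median, although the highest value of all, 175, came from p53null-10151. The remaining tested ligands were not called, with differences from -0.93 (Wnt11, limma adjusted p = 0.068) to 1.103 (Wnt16, 0.17). Wnt5a was 63.3, 902 and 3709 against 109.8, 731 and 3841, and Wnt7b 65.4, 1339.6 and 7642 against 0, 791 and 9971, with differences of 0.45 ± 0.50 and -0.83 ± 0.996 (SE).

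**Figure D3:**
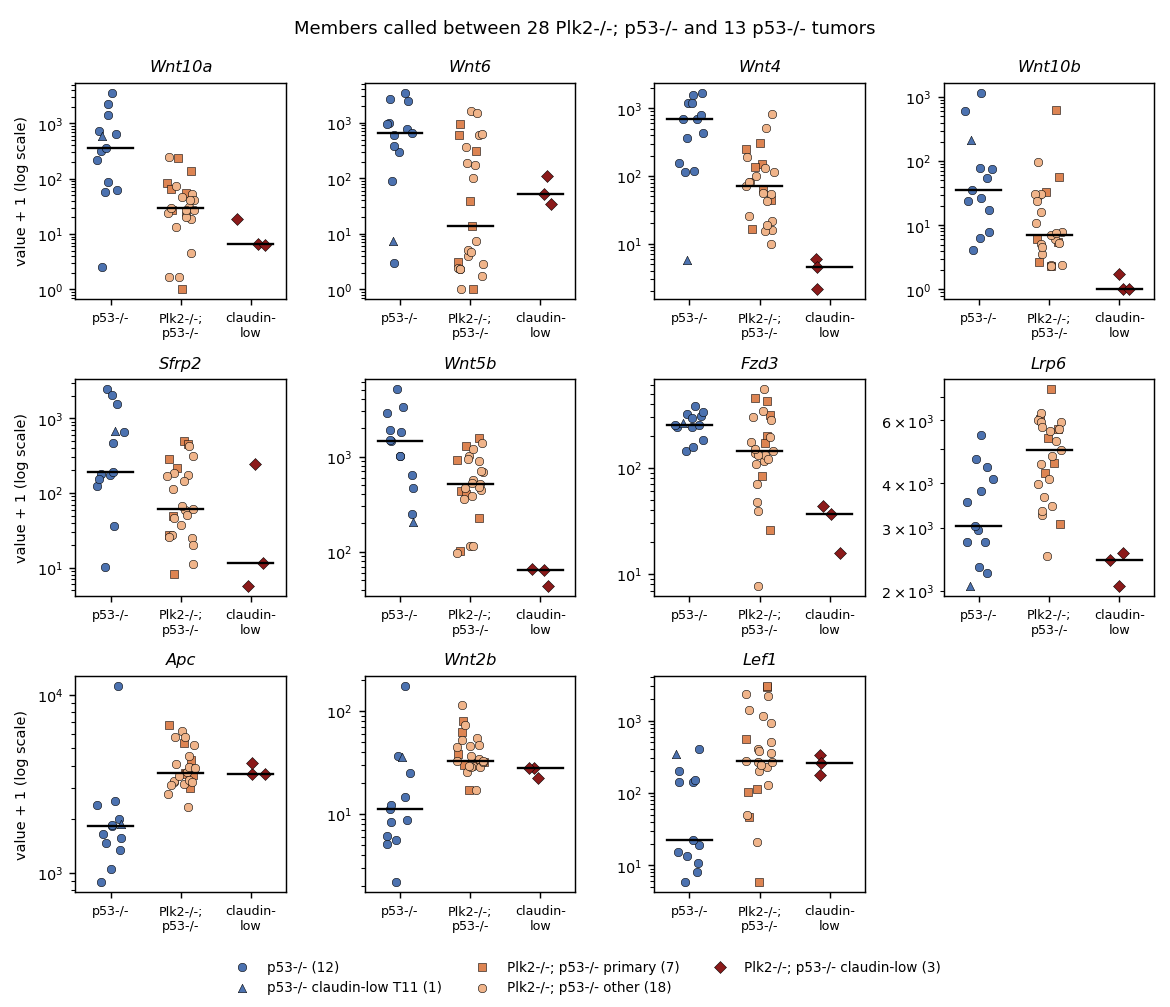
Value + 1 on a log axis of the 11 members called between genotypes, 1 point per tumor, in p53null (13, T11 as a triangle), PLK2null outside the claudin-low subtype (25, the 7 primaries as squares) and claudin-low PLK2null tumors (3), with bars at group medians. For Wnt10a, 8 p53null points lie above every PLK2null point, whereas for Wnt10b, Sfrp2 and Lef1 the genotypes overlap over most of their range.

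On the receiving side 1 receptor fell and none rose among the 10 Frizzled genes. Fzd3, a receptor of planar polarity signaling, was 142, 252 and 381 in the p53null tumors and 6.75, 134 and 549 in the PLK2null tumors, a difference of -1.12 ± 0.42 (SE; limma adjusted p = 0.029). The p53null tumors lay within a narrow band, and 15 of 28 PLK2null tumors were below all of it and 3 above all of it. This call was lost without the claudin-low tumors (-0.88, limma adjusted p = 0.077). Lrp6 rose slightly, from 2064, 3025 and 5456 to 2061, 4666 and 7345, a difference of 0.42 ± 0.16 (SE; limma adjusted p = 0.033), and lost its call when samples were rescaled by trimmed means. Lrp5, R-spondins, Lgr4 and Lgr5 were not called. Lgr5, a receptor that marks stem cells in several epithelia, was 1.31, 21.02 and 960.4 against 1.23, 29.3 and 513, a difference of -0.27 ± 0.79 (SE; limma adjusted p = 0.81).

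Of the antagonists 1 of 5 was called. Sfrp2, a decoy that binds Wnt ligands, was 9.35, 188 and 2446 in the p53null and 4.73, 58.4 and 499 in the PLK2null tumors, a difference of -2.03 ± 0.65 (SE; limma adjusted p = 0.012). The groups overlapped, with 21 of 28 PLK2null tumors below the p53null median. Within the cell, Apc rose and Ctnnb1 was not called. Apc was 885, 1833 and 11219 in the p53null tumors and 2330.7, 3618 and 6756 in the PLK2null tumors, a difference of 1.03 ± 0.19 (SE; limma adjusted p = 3.7e-05). The highest value, 11219, was that of p53null-2331L, but all 28 PLK2null tumors lay above the p53null median and 10 of 13 p53null tumors lay below every PLK2null tumor.

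Of the target and factor genes 1 of 3 was called, Lef1. It was 4.90, 21.5 and 408 in the p53null tumors and 4.81, 273 and 3045 in the PLK2null tumors, a difference of 2.699 ± 0.70 (SE; limma adjusted p = 0.002). In 26 of 28 PLK2null tumors it exceeded the p53null median, and in 10 it exceeded every p53null tumor. Among the 10 were PLK2null-7750 and PLK2null-7747, each with tumors of similar profile that may share its origin, so the 10 may not be independent. Axin2 was 18.97, 203 and 1560.5 against 23.4, 206 and 706, a difference of -0.05 ± 0.46 (SE; limma adjusted p = 0.95), so that its highest value lay in a p53null tumor and its medians were close. Tcf7 was 105, 917 and 2426 against 40.4, 1348 and 2736, a difference of 0.44 ± 0.54 (SE; limma adjusted p = 0.54).

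The genotype calls rested on all PLK2null tumors. With the 7 primary PLK2null tumors alone against the 13 p53null tumors, 2 members were called, Lrp6 (0.63, limma adjusted p = 0.046) and Apc (1.13, 0.030), and the other 9 kept their sign at adjusted p-values of 0.10 to 0.42. In that smaller comparison Wnt6 differed by -3.02, Wnt10a by -2.69, Wnt4 by -1.97 and Lef1 by 2.18. Without the claudin-low tumors of both genotypes 10 members were called, and without p53null-7435 it was 12.

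The claudin-low comparison set PLK2null-732, PLK2null-733 and PLK2null-743 against the 25 other PLK2null tumors. The subtype came from a clustering that used these tumors, so its p-values are not independent evidence that the subtypes differ. Of 41 tested members, 24 were called (58.5%), 5 higher and 19 lower, where 37.3% of 17153 genes were called, 20.2% higher and 17.1% lower. Of the 24, 7 averaged under 10 in the group where they were lower and passed the filter through the other group, Wnt3 through the claudin-low tumors and Wnt4, Wnt7b, Wnt10b, Wnt11, Lgr5 and Wif1 through the other 25. The calls and p-values of these 7 are descriptions and not evidence, and 17 other members were called. The median difference over the members was -1.41 against 0.023 over all genes. In 12 tested members (29.3%) the 3 tumors lay outside the range of the other 25, 2 of them above and 10 below, where 11.1% of all genes lay above and 8.87% below. Wnt3, among those above, and Wnt4, Wnt7b, Wnt10b and Wif1, among those below, belong to the 7, so this share is a description as well. The part of the epithelial, endothelial and pericyte markers given above in these differences was not tested.

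Wnt3 and Wnt7b were the ligands at the 2 extremes. Wnt3, a canonical ligand, was 173, 100.1 and 15.2 in the claudin-low tumors and 0, 0 and 8.77 in the other 25, a difference of 5.71. It reached the mean of 10 over the 28 tumors (10.8) only through the claudin-low group, where it is high, so its call had to follow and is given as a description. It fell under the mean of 10 when PLK2null-732 or PLK2null-733 was left out. Wnt7b, which led the ligands of 13 of the other tumors, was 2.86, 1.80 and 0 in the claudin-low tumors and 40.4, 1060.1 and 9971 in the others, a difference of -8.67 ± 1.29 (SE; limma adjusted p = 4.2e-06). The 3 tumors held 7 Wnt7b reads together, and the mean of the others was 1328 times theirs (95% exact Poisson interval of the count, 644 to 3302). An antisense transcript, AU022754, overlaps Wnt7b exons, and its highest value in any tumor was 117.

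Of the other ligands, Wnt4, Wnt5b, Wnt10b and Wnt11 fell. Wnt4 was 5.01, 3.60 and 1.13 against 8.98, 70.6 and 821, a difference of -4.17 ± 0.95 (SE; limma adjusted p = 0.00091). Wnt5b was 65.2, 64.1 and 42.9 against 97.1, 514 and 1557, a difference of -3.08 ± 0.68 (SE; limma adjusted p = 0.00064). For both genes all 3 values lay below the other 25. Wnt10b had 1 read in the 3 tumors together (0.716, 0 and 0) against 1.34, 6.09 and 619.7, a difference of -3.14 ± 1.12 (SE; limma adjusted p = 0.028) that depends on the added count, and the ratio of the means was 167 (95% exact Poisson interval, 29.9 to 6586). The mean of the others, 39.8, rests largely on PLK2null-7748 at 619.7. The Wnt10b call was lost without any 1 of the 3 tumors. Wnt11, known for convergent movements in embryos, was 7.16, 5.39 and 3.95 against 6.03, 39.3 and 147, a difference of -2.65 ± 0.53 (SE; limma adjusted p = 0.00022), with 24 of 25 tumors above all 3. Wnt5a was not called, at 1039, 491 and 383 against 109.8, 752 and 3841, and so became the leading ligand of the 3 tumors. Wnt6, not called either, was 107, 50.9 and 33.3 against 0, 13.1 and 1667, inside the range of the others. Porcn, needed for the release of every Wnt, was 78.8, 82.7 and 119.7 against 159, 390.1 and 1273, a difference of -2.31 ± 0.47 (SE; limma adjusted p = 0.00028), with the 3 tumors below all 25.

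**Figure D4:**
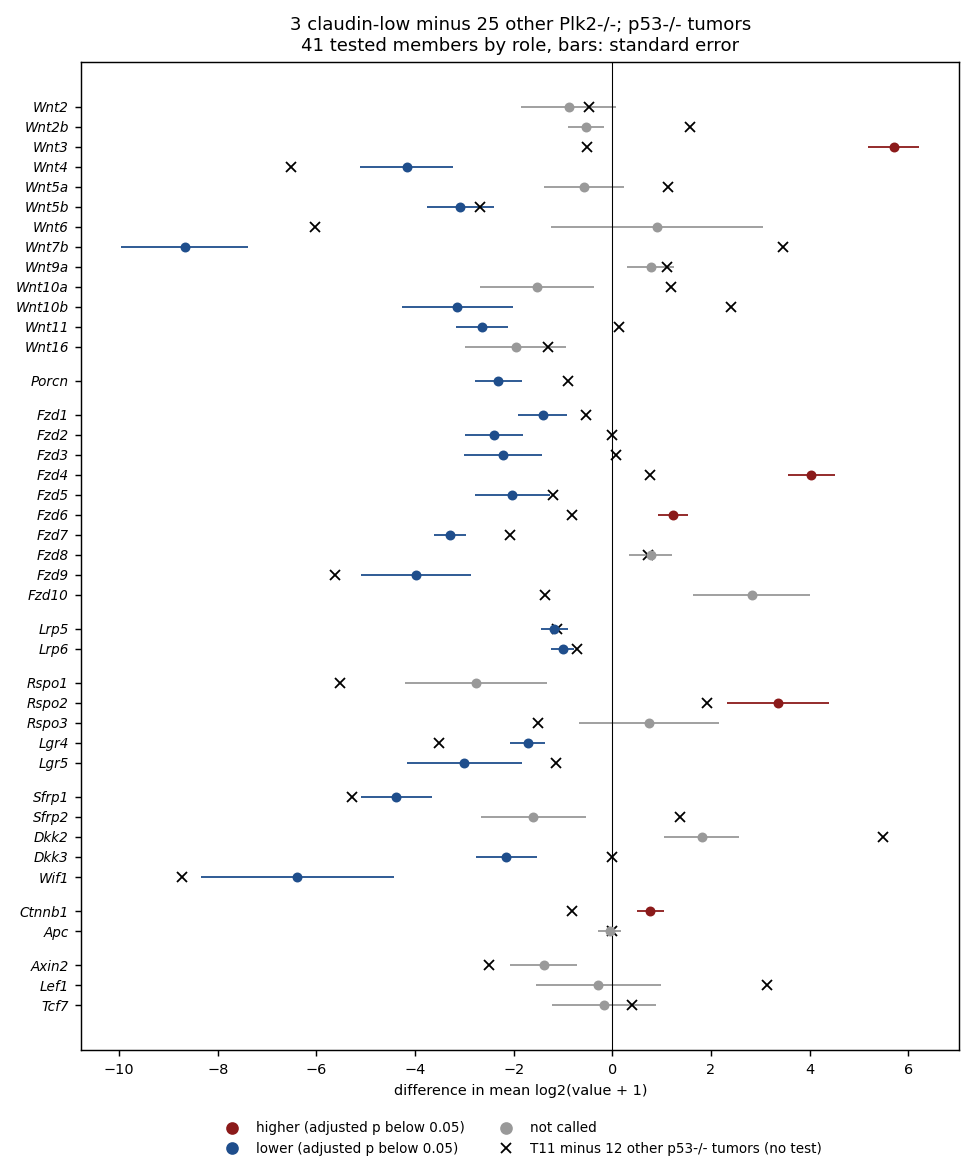
Difference in mean log2(value + 1) between the 3 claudin-low and the 25 other PLK2null tumors for the 41 tested members, with standard errors, colored by call, beside the difference between T11 and the mean of the 12 other p53null tumors (crosses, 1 tumor, no test). Wnt7b lies at -8.67 with T11 at 3.45, and Fzd4 at 4.04 with T11 at 0.76.

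The order of the Frizzled receptors changed. Of the 10 genes 8 were called (80%, against 37.3% of all genes), 2 higher and 6 lower. Fzd4, the receptor through which norrin and Wnt ligands act in vessel growth, was 5463, 6439 and 5624 in the claudin-low tumors and 167, 295 and 2491 in the others, a difference of 4.04 ± 0.47 (SE; limma adjusted p = 9.5e-08). All 3 values lay above the other 25, of which the highest, 2491, was that of PLK2null-7763, the tumor with the highest endothelial sum among them. Fzd6 was 4595, 4249 and 2433 against 897, 1644 and 2888, a difference of 1.23 ± 0.30 (SE; limma adjusted p = 0.0015), and overlapped the others through PLK2null-743. With the 7 primary tumors as the comparison group Fzd6 lost its call.

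Fzd7, the receptor that led in 24 of the 25 other tumors, was 1037, 648 and 415 against 2921, 6376 and 13111, a difference of -3.29 ± 0.32 (SE; limma adjusted p = 4.1e-09), with no overlap. Fzd9 was 54.4, 16.8 and 12.99 against 44.4, 419 and 3863, a difference of -3.98 ± 1.11 (SE; limma adjusted p = 0.0057), with 24 of 25 tumors above all 3. Fzd2 was 174, 176 and 69.5 against 62.0, 896 and 1357, a difference of -2.39 ± 0.59 (SE; limma adjusted p = 0.0019). The lowest of the other tumors for Fzd2, 62.0, was PLK2null-7763, and with the 7 primary tumors as the comparison group Fzd2 lost its call. Fzd1 was 519, 417 and 493 against 564, 1209.6 and 12474, a difference of -1.41 ± 0.49 (SE; limma adjusted p = 0.024), below all 25. Fzd3 was 42.2, 35.4 and 14.7 against 6.75, 143 and 549, a difference of -2.22 ± 0.80 (SE; limma adjusted p = 0.03). Fzd5 was 444, 364 and 285 against 277, 1727 and 6053, a difference of -2.03 ± 0.76 (SE; limma adjusted p = 0.038). Fzd1, Fzd3 and Fzd5 lost their calls without any 1 of the 3 claudin-low tumors. Fzd8 and Fzd10 were higher on average but not called, with differences of 0.78 ± 0.44 and 2.83 ± 1.19 (SE).

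**Figure D5:**
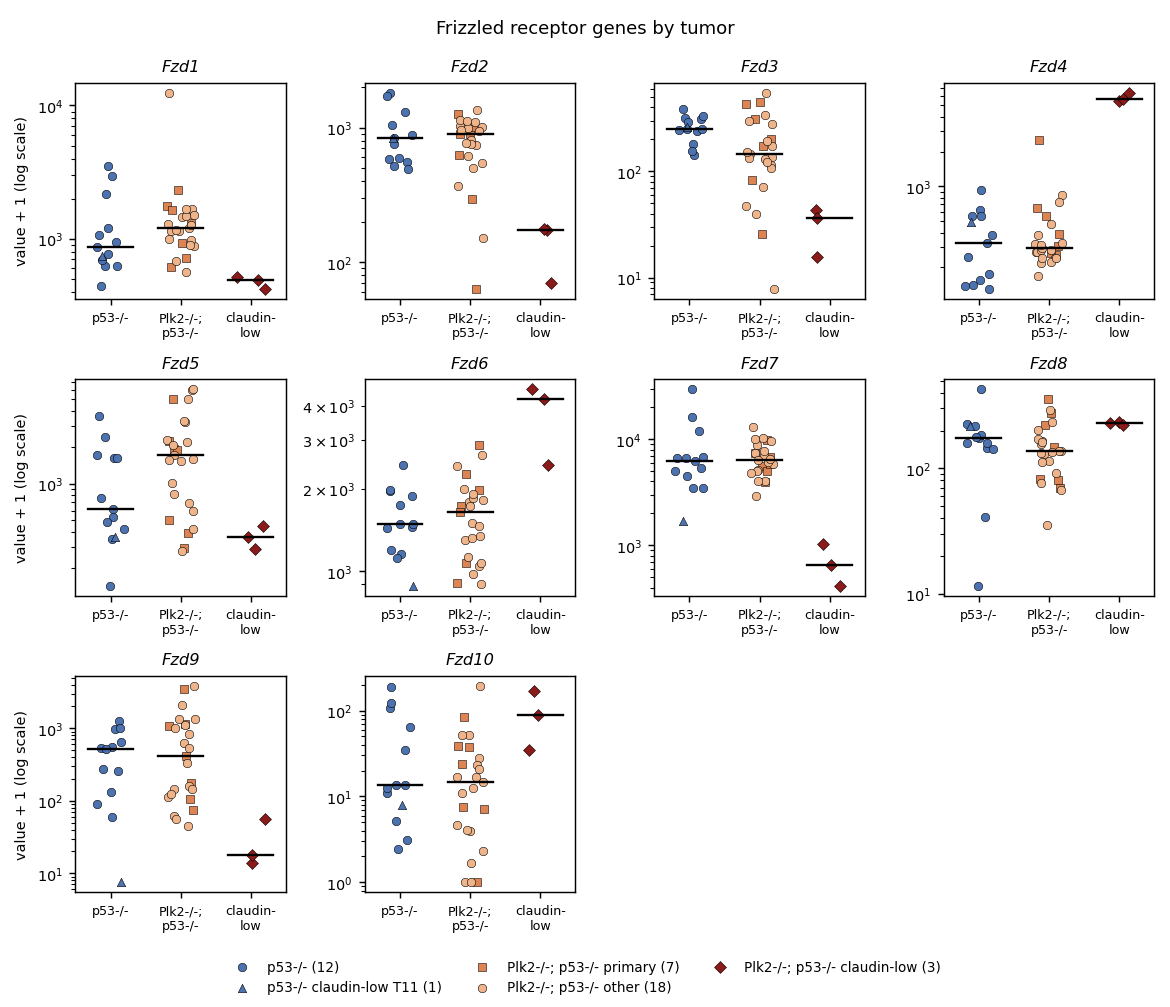
Value + 1 on a log axis of the 10 Frizzled genes, 1 point per tumor, in p53null (13, T11 as a triangle), PLK2null outside the claudin-low subtype (25) and claudin-low PLK2null tumors (3), with bars at group medians. The 3 claudin-low tumors lie above every other tumor for Fzd4 and below the other PLK2null tumors for Fzd1 and Fzd7, and T11 is not among the high Fzd4 tumors.

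Both co-receptors fell. Lrp5 was 3054, 3161 and 3421 against 4076, 7682 and 13749, a difference of -1.17 ± 0.27 (SE; limma adjusted p = 0.0012), below all 25 tumors. Lrp6 was 2061, 2550.2 and 2431 against 2498, 4972 and 7345, a difference of -1.01 ± 0.23 (SE; limma adjusted p = 0.0011), below 24 of 25. Of the R-spondin receptors, Lgr4 was 475, 881 and 469.9 against 704, 1830.2 and 3532, a difference of -1.72 ± 0.36 (SE; limma adjusted p = 0.00036), and Lgr5 was 2.15, 1.80 and 16.9 against 1.23, 37.4 and 513, a difference of -2.998 ± 1.17 (SE; limma adjusted p = 0.045). Lgr5 overlapped the others and lost its call without PLK2null-732 or PLK2null-733. The R-spondin Rspo2 was 16.5, 20.4 and 14.1 against 0, 0 and 425, a difference of 3.36 ± 1.03 (SE; limma adjusted p = 0.011). Of the 25, 24 lay below all 3, and the exception was PLK2null-7763 with 425, above every claudin-low tumor. The call was lost without PLK2null-733 and with the 7 primary tumors as the comparison group. Rspo1 and Rspo3 were not called.

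Of the 5 antagonists 3 fell (60% called, against 37.3% of all genes) and none rose. Wif1, 1 of these 3, passed the filter only through the other 25 tumors, so its call and its part in this share are descriptions. Sfrp1, a decoy receptor silenced in many carcinomas, was 211, 91.1 and 382 against 876, 3560.2 and 30879, a difference of -4.38 ± 0.72 (SE; limma adjusted p = 2.1e-05), below all 25. Wif1, another decoy, was 8.59, 1.20 and 1.13 against 9.20, 219.6 and 32031, a difference of -6.39 ± 1.96 (SE; limma adjusted p = 0.011), also below all 25. The ratio of its means was 1055 (95% exact Poisson interval of the 16 claudin-low reads, 650 to 1846), and the mean of the others rests on a few very high tumors. Dkk3 was 157, 76.1 and 211 against 151, 661 and 2329, a difference of -2.15 ± 0.61 (SE; limma adjusted p = 0.0063). Without PLK2null-733 neither Dkk3 nor Wif1 was called, and without PLK2null-743 Wif1 was not. Sfrp2 and Dkk2 were not called, at -1.60 ± 1.07 (SE; limma adjusted p = 0.25) and 1.81 ± 0.77 (SE; limma adjusted p = 0.064).

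Of beta-catenin, Apc and the targets, 1 of 5 was called. Ctnnb1, which also forms adherens junctions, was 43941, 43182 and 35868 against 11963, 23478 and 50601, a difference of 0.77 ± 0.28 (SE; limma adjusted p = 0.029) that was lost without any 1 of the 3 tumors. Apc was not called, at 3607, 4115 and 3600.1 against 2330.7, 3629 and 6756. None of the 3 target and factor genes was called. Axin2 was 97.4, 86.9 and 61.0 against 23.4, 212 and 706, a difference of -1.39 ± 0.69 (SE; limma adjusted p = 0.11), and 22 of 25 tumors lay above all 3. Against the 7 primary tumors alone Axin2 was called lower. Lef1 was 179, 257 and 334 against 4.81, 279 and 3045 and Tcf7 was 733.2, 813 and 1155 against 40.4, 1661 and 2736, with differences of -0.28 ± 1.27 and -0.17 ± 1.05 (SE).

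Of the 24 calls, 14 were made again without each of the 3 claudin-low tumors in turn. They were Wnt4, Wnt5b, Wnt7b, Wnt11, Porcn, Fzd2, Fzd4, Fzd6, Fzd7, Fzd9, Lrp5, Lrp6, Lgr4 and Sfrp1. Among them Wnt4, Wnt7b and Wnt11 passed the filter only through the other PLK2null tumors, so their calls are descriptions. The count was 17 without PLK2null-732, 14 without PLK2null-733 and 19 without PLK2null-743, and it was 19 with the 7 primary tumors as the comparison group. Without PLK2null-7763 it was 24, with Dkk2 called and Rspo2 under the mean of 10. Wnt3 was not tested without PLK2null-732 or PLK2null-733.

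T11, the tumor with intact Plk2 that the study names claudin-low, was examined for the same members. It is 1 tumor, so the test of the difference between the genotypes takes its spread from the other groups and holds no information on how claudin-low p53null tumors vary. T11 had an epithelial marker sum of 33782, the lowest of the p53null tumors, and an endothelial sum of 6876. In the claudin-low PLK2null tumors these sums were 55.9 to 309 and 165585 to 186496. Pericyte markers summed to 8610 in T11 against 83077 to 99302 there, and fibroblast markers to 225122 against 14888 to 56137. T11 was thus not matched to those tumors in these markers. Whether a matched claudin-low tumor with intact Plk2 shows the same members was not tested. Of the 24 members called in the claudin-low PLK2null tumors, T11 lay on the same side of the mean of the 12 other p53null tumors for 17 (70.8%, against 62.8% of the 6391 genes called) and on the other side for 7, namely Wnt3, Wnt7b, Wnt10b, Wnt11, Fzd3, Fzd6 and Ctnnb1. Of these 24, Fzd2, Fzd3 and Dkk3 lay within 0.1 of that mean on the log2 scale in T11. Its values were the lowest of the 13 p53null tumors for Wnt4 (4.76), Wnt5b (205), Fzd6 (885), Fzd7 (1678), Fzd9 (6.49), Lrp5 (3163), Lrp6 (2064), Lgr4 (189), Sfrp1 (89.1), Wif1 (0.866) and Rspo1 (0.866), and the highest for Wnt7b (7642), Dkk2 (3719) and Rspo2 (4.33).

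The claudin-low difference in PLK2null tumors minus that of T11 from the other p53null tumors was called for 3 of 41 members (7.32%), 2 higher and 1 lower, where 9.97% of 17208 genes were called, 6.54% higher and 3.43% lower. Of all called genes 65.6% were higher, and 55.5% after rescaling by trimmed means. Wnt7b had the lowest values in the claudin-low PLK2null tumors (2.86, 1.80 and 0) and its highest p53null value in T11 (7642), a difference of differences of -12.12 ± 2.36 (SE; limma adjusted p = 0.0007). Fzd4 was 495 in T11, within the p53null range of 129 to 936, against 5463, 6439 and 5624, a difference of 3.27 ± 1.01 (SE; limma adjusted p = 0.033) that was not called without any 1 of the 3 claudin-low PLK2null tumors. Fzd6 was at its p53null minimum of 885 in T11 and at 4595, 4249 and 2433 in the claudin-low PLK2null tumors, a difference of 2.05 ± 0.55 (SE; limma adjusted p = 0.012). For the other 38 members this difference did not pass the threshold, which with 1 tumor on the p53null side does not show that the genotypes act alike.

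A further 54 genes of the pathway were examined. Between genotypes 14 of 50 tested were called (28%), 7 in each direction, against 39.5% of all genes. The 6 higher cytoplasmic components included Tnks, whose product marks Axin for degradation (1.37 ± 0.27, limma adjusted p = 6.0e-05), and Dvl3, a relay from Frizzled receptors (1.22 ± 0.15, limma adjusted p = 1.2e-08), and the corepressor Tle2 rose furthest (2.08 ± 0.35, limma adjusted p = 8.3e-06). The largest falls were those of Kremen2, a Dkk receptor (-3.98 ± 0.74, limma adjusted p = 3.2e-05), Sostdc1, an antagonist of Wnt and BMP ligands (-3.43 ± 1.06, limma adjusted p = 0.0086), and Sfrp4 (-1.89 ± 0.70, limma adjusted p = 0.029). Kremen2 averaged under 10 in the PLK2null tumors and passed the filter only through the p53null tumors, so its call is a description. In the claudin-low PLK2null tumors 18 of 49 tested were called (36.7%), 3 higher and 15 lower, against 37.3% of all genes. Of the 9 feedback and target genes 5 were called (55.6%), 4 of them lower. The largest falls were Nkd2 (-6.10 ± 0.75, limma adjusted p = 2.2e-07), Rnf43 (-5.68 ± 0.42, limma adjusted p = 1.4e-11) and Lgr6 (-4.38 ± 1.46, limma adjusted p = 0.019). Nkd2 and Rnf43 restrain the pathway as feedback genes, and Rnf43 removes Frizzled proteins from the membrane. The 3 that rose were Procr, the protein C receptor, which is also made by endothelium (3.89 ± 0.52, limma adjusted p = 7.4e-07), Tle4 (0.83 ± 0.27, limma adjusted p = 0.018) and Dvl1 (0.67 ± 0.21, limma adjusted p = 0.011). Whether Nkd2, Rnf43, Lgr6 and Procr passed the filter through only 1 group was not examined, so their calls are descriptions. For the difference between genotypes, which rests on the single tumor T11, 8 of 50 were called (16%), 3 higher and 5 lower, against 9.97% of all genes, 6.54% higher and 3.43% lower. The largest in each direction were Nkd1 (5.92 ± 1.699, limma adjusted p = 0.02), Tle4 (3.22 ± 0.73, limma adjusted p = 0.0031), Tle3 (1.45 ± 0.47, limma adjusted p = 0.042), Cd44 (-3.94 ± 1.28, limma adjusted p = 0.041), Tle2 (-3.36 ± 0.91, limma adjusted p = 0.013) and Wls, the carrier of Wnt ligands to the membrane (-2.33 ± 0.62, limma adjusted p = 0.012).

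PLK2null tumors also differed by the primary tumor they most resembled. Each of the 18 other tumors was set beside the primary tumor with the highest correlation over 17208 genes, which ranged from 0.23 to 0.87 and describes libraries that may share an origin. The leading ligand was that of the closest primary tumor in 13 of the 18. The correlation included the tested members, and Wnt7b led in 10 of the 18 and in 3 of the 7 primaries, so this count is a description. Wnt7b was 2225.01 to 9971 in PLK2null-7749 and its 3 closest tumors, 2526 to 3719 in PLK2null-7753 and its 3, and 2210 to 3538 in PLK2null-7764 and its 3, and led in all 12. It was 40.4 to 878 in PLK2null-7747 and its 4 closest tumors, and 60.0 to 1060 in PLK2null-7750 and its 4. The 1060 was that of PLK2null-1970, whose correlation with PLK2null-7750 was 0.23. PLK2null-7750 with PLK2null-1984, PLK2null-1985 and PLK2null-1986 had the lowest summed ligand levels outside the claudin-low tumors, 151 to 262 per kilobase, together with Lef1 at 1152 to 2940 and Tcf7 at 74.9, 79.7, 60.9 and 40.4. Among the PLK2null tumors Wif1 was highest in PLK2null-7747, PLK2null-1965, PLK2null-1964 and PLK2null-1963, at 32031, 31200, 17654 and 6383, and in these tumors Sfrp1 was 17789.7, 22209.6, 30879 and 14967.

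Reads from 10 of the 44 members could not be told from those of an antisense gene with overlapping exons, since the sources used here do not say whether strand was used. They were Wnt5a, Wnt7b, Wnt11, Fzd5, Fzd6, Rspo3, Sfrp2, Ctnnb1, Axin2 and Lef1. The antisense genes in the table stayed at or below 117 in every tumor, apart from Ulk4 beside Ctnnb1, which reached 294.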

How the data were processed

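RNA of 41 mouse mammary tumors was sequenced from both fragment ends after preparation with the Illumina TruSeq mRNA kit, 1 library per tumor. Per the submitters' processing notes the mm10 build, STAR 2.7.6a, Salmon 1.4.0, Picard 2.22.4 and SAMtools were used. The authors deposited gene-level estimated counts from Salmon, divided by each tumor's upper quartile and set to 1000, as a linear signal. The annotation used for quantification is not given in the sources used here. Salmon spreads reads over similar transcripts, so low values of related genes are less certain.

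Genotype came from the labels. Claudin-low tumors came from the study's model list and clustering, and primary tumors from numbers shared with its latency plot. The 44 members and all gene lists were chosen with earlier results of these data known. Between 77.9 and 80.5% of nonzero values lay within 0.1 read of a whole multiple of the value of 1 read, so no count model was used. Tests used limma 3.58.1 in R 4.3.3 on log2(value + 1), where a gene averaged 10 or more over the fitted tumors, with Benjamini-Hochberg adjustment over all of them and a threshold of 0.05. A fit over 41 tumors compared the claudin-low difference between genotypes. The fits were also run on simulated data with independent tumors and equal spread in both groups. That run cannot cover tumors of shared origin or a batch that goes with genotype. Members with a called difference of at least 1 on the log2 scale, and Axin2, Lef1, Tcf7 and Lgr5, are given with their values, and of other pathway genes the 3 with the largest called difference in each direction. Positions, exon lengths and overlaps came from GENCODE vM21, promoters from RefSeq on GRCm38.p6. Descriptions were made in Python 3.11.15 with pandas 2.3.3, and intervals with scipy 1.17.1. Alternatives were other pseudocounts, filters and scalings, an intensity trend, and fewer tumors. Subtypes of p53null tumors other than T11 were not used here.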

Additional observations from a re-analysis of the deposited data

Results flagged for a closer look

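For 3 members the claudin-low difference in PLK2null tumors and that of T11 from the other p53null tumors lay apart past the threshold. T11 is the single claudin-low p53null tumor and is assumed to vary like the other groups, so these values set 1 tumor beside 3 and do not show that the genotypes differ. Wnt7b differed by -12.12 ± 2.36 (SE; limma adjusted p = 0.00070). It was near the floor in PLK2null-732, PLK2null-733 and PLK2null-743 and at its p53null maximum of 7642 in T11. Fzd4 differed by 3.27 ± 1.01 (limma adjusted p = 0.033), and this call was lost without any 1 of the 3 claudin-low PLK2null tumors. Fzd6 differed by 2.05 ± 0.55 (limma adjusted p = 0.012). Beside these differences, the endothelial marker sum was 165585 to 186496 in the 3 PLK2null tumors and 6876 in T11, and the epithelial sum 55.9 to 309 and 33782. T11 was thus not matched to the 3 PLK2null tumors in these markers. The part of the markers in the 3 differences was not tested.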

How the results depend on the processing

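Between genotypes 11 members were called, and 2 with only the 7 primary PLK2null tumors. With 6 primaries (without PLK2null-7763) against the p53null tumors without T11, a choice made after seeing the data, 2 were called as well, Wnt4 and Apc. Other settings gave 9 to 12. The claudin-low count was 24, and 14 to 19 when 1 of the 3 tumors was left out, which also leaves fewer samples. Other settings gave 19 to 24, among them 19 with the 6 primaries as the comparison group, also chosen after seeing the data. The interaction count was 3, 4 without the filter on low values, and 2 each time when 1 claudin-low PLK2null tumor was left out. No called member changed sign under any alternative run. Rescaling by trimmed means moved the median genotype difference of all genes from 0.097 to -0.083, that of the claudin-low difference from 0.023 to -0.077, and that of the interaction from 0.19 to -0.049. The median share of the leading ligand was 44.9%, and 43.7% with the length of the longest transcript. No paired analysis was possible because the groups share no tumor number. Precision is limited by the 3 claudin-low tumors, the lone T11 and tumors that may share an origin, and for genes near the floor by depth.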

Other observations

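A pair of p53null tumors, chosen after their values were seen, held the highest values of several members, and low values of others. p53null-7435 had the highest Axin2 (1560) and Fzd7 (29608) values of the 41 tumors, with Lgr5 at 922, Wnt6 at 2675, Wnt10a at 1418 and Tcf7 at 2353. p53null-5317 had the next highest Axin2 value (772) and the highest Lgr5 (960.4) and Wnt6 (3508) values, with Wnt10a at 2182 and Tcf7 at 2426. In p53null-7435 Lef1 was 18.3, Wnt4 was 155, Apc was 1463 and Wnt7b, at 65.4, was the lowest of the 13 p53null tumors. In p53null-5317 Lef1 was 201 and Wnt7b was 305. p53null-7435 is also the tumor with the lowest Plk2 value among the p53null tumors.

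Single tumors held values far from all others. Fzd1 was 12474 in PLK2null-1971 and at most 3497 elsewhere. Rspo1 was 4496 in p53null-5329, Rspo3 was 4478 in p53null-2331L, and Dkk2 was 3719 in T11. Rspo1 outside p53null-5329 was at most 903, and Rspo3 outside p53null-2331L at most 299. Each rests on 1 library.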
